A study of Mus musculus with 6 samples.

Results

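The Ly6 surface antigen family was followed in BCR-ABL1-driven mouse pre-B cells, BCR-ABL1 being the fusion kinase of Philadelphia chromosome-positive leukaemia. Of 10 listed genes (Ly6a, Ly6c1, Ly6d, Ly6e, Ly6f, Ly6h, Ly6i, Ly6k, Ly6g6c and Ly6g6d), 8 had a probe set that the platform annotation gives to that gene alone, out of 19938 genes measured in this way. For each gene the probe set selected on its mean over the 6 arrays was to be the one with the highest mean, but each of the 8 had only 1. Ly6c1 was represented by 2 probe sets that the annotation shares with its paralog Ly6c2, and Ly6a was not analysed here because no probe set is listed for it. The family was chosen by the difference of Ly6f in the comparison described here. The Ly6f values, its call and its range under the alternatives are therefore given as a description. No p-value of Ly6f is printed, and nothing is read from its call.

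Biotin-labelled total RNA was read on Affymetrix gene arrays. One group, CRE-ERT2, was 3 samples of cells carrying the PMIP-CRE-ERT2 vector, in which Cre recombinase is fused to a tamoxifen-responsive receptor domain. The other group, ERT2, was 3 samples carrying the PMIP-ERT2 vector without Cre. Both groups came from strain 129P2/OlaHsd, were labelled Ptpn6 +/fl, were puromycin resistant, and were kept for 2 days in 0.5 micromolar 4OH-tamoxifen. Ptpn6 encodes SHP-1, a phosphatase that restrains signalling from surface receptors, and both groups still carried 1 unfloxed allele. The Ptpn6 probe set read 11.36, 11.25 and 11.20 on a log2 scale in CRE-ERT2 and 11.25, 11.39 and 11.39 in ERT2. These values overlapped (difference -0.07, limma adjusted p = 0.759), and the sources used here do not say whether the probes lie in the floxed part. All differences below are CRE-ERT2 minus ERT2 on the log2 scale, and a gene is called where limma's p, adjusted over all genes, is under 0.05. Nothing in the labels ties the samples of a group to separate cultures, so a p-value here reflects the sample-to-sample spread alone, and that spread may be technical. Over all genes the within-group SD had a median of 0.0973.

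Ly6 proteins are small and share the finger-like fold of the Ly6/uPAR superfamily, and most of them are held on the outer face of the cell membrane by a glycosylphosphatidylinositol (GPI) anchor. Several serve as antibody-defined stage markers in mouse blood: Ly6a is the stem cell antigen Sca-1, Ly6d marks lymphoid progenitors biased towards the B lineage, and Ly6c and Ly6g antigens mark monocytes and neutrophils. Ly6e is widely expressed and inducible by interferon, Ly6h is known mainly from brain, and Ly6k from testis. Most mouse Ly6 genes lie side by side on chromosome 15, while Ly6g6c and Ly6g6d lie in the class III region of the major histocompatibility complex on chromosome 17.

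Several Ly6 genes of chromosome 15 resemble each other in sequence around their start sites. RefSeq start-site windows of the assembly GRCm38.p6 (250 bases before and 50 after the start) were at hand for 4 of the 10 members. Most of each window lies outside the transcript, and no probe or transcript sequences were compared. The windows therefore cannot tell which transcripts a probe set takes up. For Ly6f, its paralog Ly6g and Ly6c1, 1 window each is shown, picked after their values were seen. Ly6g and Ly6c1 each have a second window, described below. Ly6f read higher in CRE-ERT2 by 1.82. The Ly6c probe sets (0.44 and 0.36) and Ly6g (0.11) also read higher, and none of these was called. Capitals mark the letters TATAAA and CCAAT, which were searched on both strands and found here on the gene's own strand, with no overlap between them.
Ly6f, chr15:75268171-75268470, plus strand: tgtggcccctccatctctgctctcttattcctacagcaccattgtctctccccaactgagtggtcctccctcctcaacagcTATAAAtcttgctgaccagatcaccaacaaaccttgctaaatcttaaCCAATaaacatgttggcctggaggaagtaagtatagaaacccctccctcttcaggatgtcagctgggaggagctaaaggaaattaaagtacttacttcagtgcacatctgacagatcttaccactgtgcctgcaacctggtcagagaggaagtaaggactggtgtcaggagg
Ly6g, chr15:75155079-75155378, plus strand: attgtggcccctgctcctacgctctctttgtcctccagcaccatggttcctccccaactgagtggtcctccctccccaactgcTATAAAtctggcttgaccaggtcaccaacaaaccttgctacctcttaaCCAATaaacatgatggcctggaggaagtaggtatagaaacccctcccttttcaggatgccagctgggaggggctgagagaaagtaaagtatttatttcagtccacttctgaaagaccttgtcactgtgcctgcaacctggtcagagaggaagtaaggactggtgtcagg
Ly6c1, chr15:75048788-75049087, minus strand: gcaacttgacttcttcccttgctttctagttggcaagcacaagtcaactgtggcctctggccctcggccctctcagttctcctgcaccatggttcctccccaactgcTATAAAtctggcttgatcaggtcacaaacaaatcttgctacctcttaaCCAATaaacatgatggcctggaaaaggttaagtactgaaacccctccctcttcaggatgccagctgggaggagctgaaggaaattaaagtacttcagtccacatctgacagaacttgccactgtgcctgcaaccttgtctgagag

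Of the 289 different 12-letter words in the Ly6f window, 79 occur in that Ly6g window and 39 in that Ly6c1 window. The second Ly6g window shares 42 words and the second Ly6c1 window 43. The Ly6c2 windows share 40 and 37, and the Ly6a2 window shares 23. The Ly6-named windows of chromosome 17, among them those of the members Ly6g6c and Ly6g6d, share 0. No window outside the Ly6 names shares more than 7, and 97.8% of 32850 windows share none. TATAAA begins at base -169 of the Ly6f window, -167 of the Ly6g window and -143 of the Ly6c1 window, counted from the start site. CCAAT begins at -122, -119 and -95 in the same order of genes. In the second Ly6g window, counted from its own start site, TATAAA begins at -99 and CCAAT at -51. TATAAA is present in 13.6% of all windows and CCAAT in 37.4%, on either strand, so both are common. Neither is in the second Ly6c1 window or in the Ly6c2 or Ly6a2 windows. The window of Ly6g6c, on chromosome 17, has TATAAA at -30 and 2 CCAAT matches on the opposite strand. The patterns TTCNNNGAA (a STAT site), the interferon response element (GAAA, any 2 bases, GAAA) and TGANTCA (an AP-1 site) occur in 8.3%, 3.44% and 7.81% of windows on either strand. None of these letters was found in the chromosome 15 Ly6 windows. A match or its absence describes these letters in this window only.

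Ly6f, a little-studied member of the chromosome 15 group, was the only measured Ly6 gene with a large difference. Its probe set 10424691 read 10.01, 9.70 and 10.05 in CRE-ERT2 and 8.17, 8.01 and 8.12 in ERT2. Every CRE-ERT2 array lay above every ERT2 array, and the gap between the groups was several times the spread within either. The means were 9.92 ± 0.19 in CRE-ERT2 and 8.10 ± 0.08 in ERT2 (SD, n = 3 each), a difference of 1.82 and a ratio of 3.54. Only 2 of the 19938 genes had a larger increase. With each array left out in turn the difference lay between 1.76 and 1.93. Because the RNA came from bulk cultures, more cells with the transcript and more transcript per cell cannot be told apart.

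**Figure D1:**
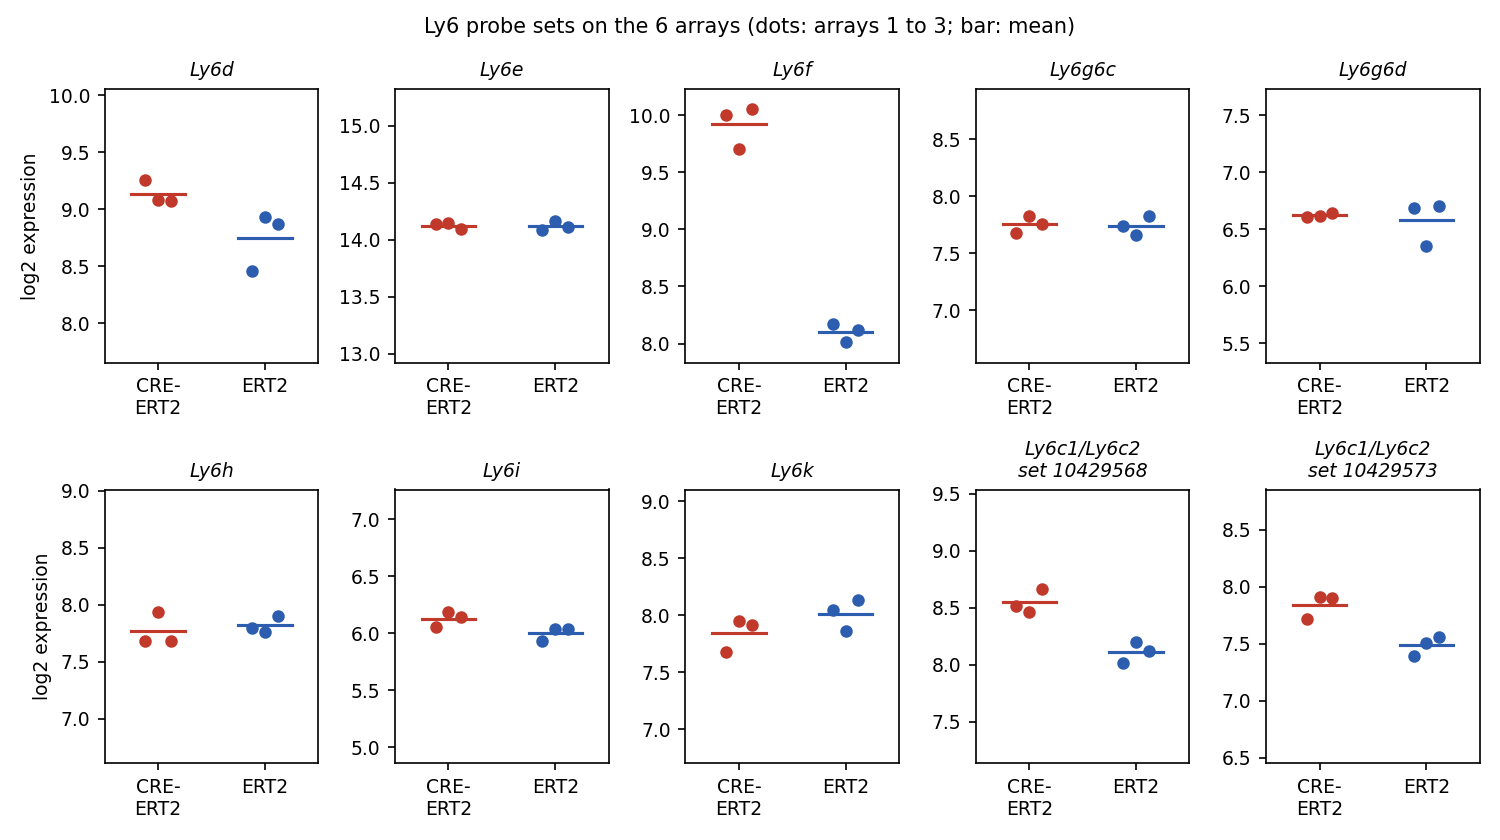
Log2 expression of the 8 Ly6 members with a probe set of their own and of the 2 probe sets shared by Ly6c1 and Ly6c2, with CRE-ERT2 (red) left of ERT2 (blue) in each panel. Dots are single arrays, bars are group means, and every vertical axis spans the same log2 range; Ly6f shows the wide gap, at 9.92 in CRE-ERT2 and 8.10 in ERT2.

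Ly6d had the next largest difference among the 8. Its values were 9.25, 9.08 and 9.07 in CRE-ERT2 and 8.45, 8.93 and 8.87 in ERT2. The groups did not overlap, although the nearest arrays were close and ERT2 replicate 1 lay below the other two ERT2 arrays. The difference was 0.38 (95% interval 0.14 to 0.63), with a limma adjusted p of 0.0811, so Ly6d was not called. The exact two-sided permutation test over the 6 arrays gave its smallest possible p of 0.1. The result varied with the array left out. Without ERT2 replicate 1 the difference was 0.24 (adjusted p = 0.220). Without ERT2 replicate 2 or 3 it was 0.47 or 0.44, with adjusted p of 0.0231 or 0.0468. Without CRE-ERT2 replicate 1, 2 or 3 Ly6d was not called (0.236, 0.122 and 0.198). It was also called when only the 13292 brighter genes were kept (0.0494) and with a trended, robust variance (0.0318).

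The Ly6c antigens are classically used to sort monocytes, and their 2 shared probe sets both read higher in CRE-ERT2. Probe set 10429568 read 8.52, 8.46 and 8.66 in CRE-ERT2 and 8.01, 8.20 and 8.12 in ERT2. Probe set 10429573 read 7.71, 7.91 and 7.90 in CRE-ERT2 and 7.39, 7.51 and 7.56 in ERT2. Neither set overlapped between the groups. The differences were 0.44 (95% interval 0.24 to 0.64) for the first set and 0.36 (0.16 to 0.56) for the second. Since these sets name 2 genes, they were tested among all 35556 probe sets, where the limma adjusted p was 0.0933 for the first and 0.159 for the second. Neither was called, and the unadjusted p was 0.00133 for the first and 0.00401 for the second. With the dimmest probe sets left out the first set passed, at an adjusted p of 0.0447, and under the other alternatives neither set was called. With each array left out in turn, limma's adjusted p was 0.152 to 0.306 for the first set and 0.201 to 0.481 for the second. Of all probe sets 0.838% were called, and in 6.42% the 3 CRE-ERT2 arrays all lay above the 3 ERT2 arrays. The sets cannot separate Ly6c1 from Ly6c2, and how far they also take up Ly6f transcript was not tested.

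Ly6e read close to the top of the values on these arrays, where the highest gene value was 14.8. It read 14.14, 14.14 and 14.09 in CRE-ERT2 and 14.08, 14.16 and 14.11 in ERT2. The groups overlapped and their means agreed to the second decimal, at 14.12 in each. The difference was 0.01 (95% interval -0.14 to 0.16, adjusted p = 0.986). How far a reading so near the top can still rise was not tested.

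Ly6i is the next measured gene after Ly6e in chromosomal order. It read 6.06, 6.19 and 6.14 in CRE-ERT2 and 5.93, 6.04 and 6.04 in ERT2. The groups did not overlap, but the difference of 0.13 was not called (95% interval -0.03 to 0.29, adjusted p = 0.451). Ly6k had the most negative difference of the family. It read 7.68, 7.95 and 7.91 in CRE-ERT2 and 8.04, 7.86 and 8.13 in ERT2, and the groups overlapped. The Ly6k difference was -0.17 (95% interval -0.37 to 0.04, adjusted p = 0.437), and it was -0.08 without CRE-ERT2 replicate 1 and -0.11 without ERT2 replicate 3. Ly6h lies at the far end of the cluster and read 7.68, 7.94 and 7.68 in CRE-ERT2 and 7.80, 7.76 and 7.90 in ERT2. Its groups overlapped, with a difference of -0.05 (95% interval -0.24 to 0.13, adjusted p = 0.868).

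The 2 members of chromosome 17 showed no called difference. Ly6g6c read 7.68, 7.83 and 7.76 in CRE-ERT2 and 7.74, 7.66 and 7.82 in ERT2. Ly6g6d read 6.61, 6.61 and 6.64 in CRE-ERT2 and 6.68, 6.35 and 6.71 in ERT2. Both overlapped between the groups, and the lowest Ly6g6d value belonged to ERT2 replicate 2. The differences were 0.02 for Ly6g6c (95% interval -0.15 to 0.18, adjusted p = 0.968) and 0.04 for Ly6g6d (-0.16 to 0.24, adjusted p = 0.920).

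Set beside all genes, 1 of the 8 members was called, where 4.58% of the 19938 genes were called in either direction and 2.3% as higher. That member is Ly6f, which prompted the choice of the family, so nothing is read from the count. Among the 7 other members, the CRE-ERT2 arrays all lay above the ERT2 arrays in 2 (Ly6d and Ly6i) and all below in 0. Of all genes, 6.92% had every CRE-ERT2 array above every ERT2 array and 15.5% had every one below. The median difference was 0.03 over the 8 members, 0.02 over the 7 other than Ly6f, and -0.03 over all genes. For the 6 members other than Ly6f and Ly6d the differences ran from -0.17 to 0.13, and their 95% intervals lay within -0.37 to 0.29. Within-group SDs of the 7 members other than Ly6f ran from 0.0200 to 0.258.

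Array values have no true zero, so the members were placed beside the 1027 olfactory receptor genes, which encode odorant receptors of the nose. The mean levels of these receptors had a 5th percentile of 4.02, a median of 5.69 and a 95th percentile of 7.40. Of the 8 members, 6 had a mean above 7.40, and Ly6i and Ly6g6d lay below it. This is a range of dim readings, not a detection call.

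The neighbours of Ly6f in the cluster were read next. The RefSeq gene table lists 37 genes from Ly6d to Ly6h, and 15 of them were measured. Of the 14 other than Ly6f, 1 was called, where 4.58% of all genes were called. This was 9030619P08Rik, annotated as a transcribed pseudogene and the next measured gene after Ly6f. It read 8.0, 7.6 and 7.5 in CRE-ERT2 and 6.4, 6.4 and 6.2 in ERT2, with means of 7.69 ± 0.27 in CRE-ERT2 and 6.32 ± 0.12 in ERT2 (SD, n = 3 each). All 3 CRE-ERT2 arrays stood well above all 3 ERT2 arrays. The difference was 1.37 (95% interval 1.11 to 1.63, adjusted p = 1.99e-05), a ratio of 2.58. Its ERT2 mean lies below the 7.40 that bounds most olfactory receptor genes, and it was among the dim genes removed when only the 13292 brighter ones were kept. It ran from 1.22 to 1.48 with each array left out in turn, and the adjusted p stayed at or below 0.00105. The pseudogenes Gm52218 and Gm3454 and the long noncoding RNA Gm28114 lie between Ly6f and 9030619P08Rik in the table and were not analysed here. How far the Ly6f and 9030619P08Rik probe sets take up each other's transcripts was not tested.

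The Ly6-named genes on the other side of Ly6f that are not members were not called, while the shared Ly6c probe sets (0.44 and 0.36) and Ly6d (0.38), described above, belong to genes on that side as well. Ly6g, which encodes a neutrophil antigen, averaged 6.56 ± 0.16 in CRE-ERT2 and 6.44 ± 0.02 in ERT2 (SD, n = 3 each), a difference of 0.11 that was not called (adjusted p = 0.606). Ly6g2 differed by 0.11, Ly6a2 by 0.08, Ly6m by 0.02 and Ly6g6g by -0.05, and none of these was called. Beyond the Ly6d end, Them6 was lower, at 10.50, 10.36 and 10.31 in CRE-ERT2 and 10.64, 10.84 and 10.78 in ERT2. Its difference was -0.36 (adjusted p = 0.0247). Leaving out CRE-ERT2 replicate 2 ended the Them6 call (adjusted p = 0.0863), as did leaving out CRE-ERT2 replicate 3 (0.147) or ERT2 replicate 2 (0.0674), or a fit with the replicate number as a block (0.073). Lynx1, which encodes a Ly6-like modulator of nicotinic acetylcholine receptors, is the measured gene next to Ly6d and differed by 0.26 without passing (adjusted p = 0.0972). Of the 29 measured neighbours that are not members, 1 was higher and 1 was lower, where 4.58% of all genes were called.

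**Figure D2:**
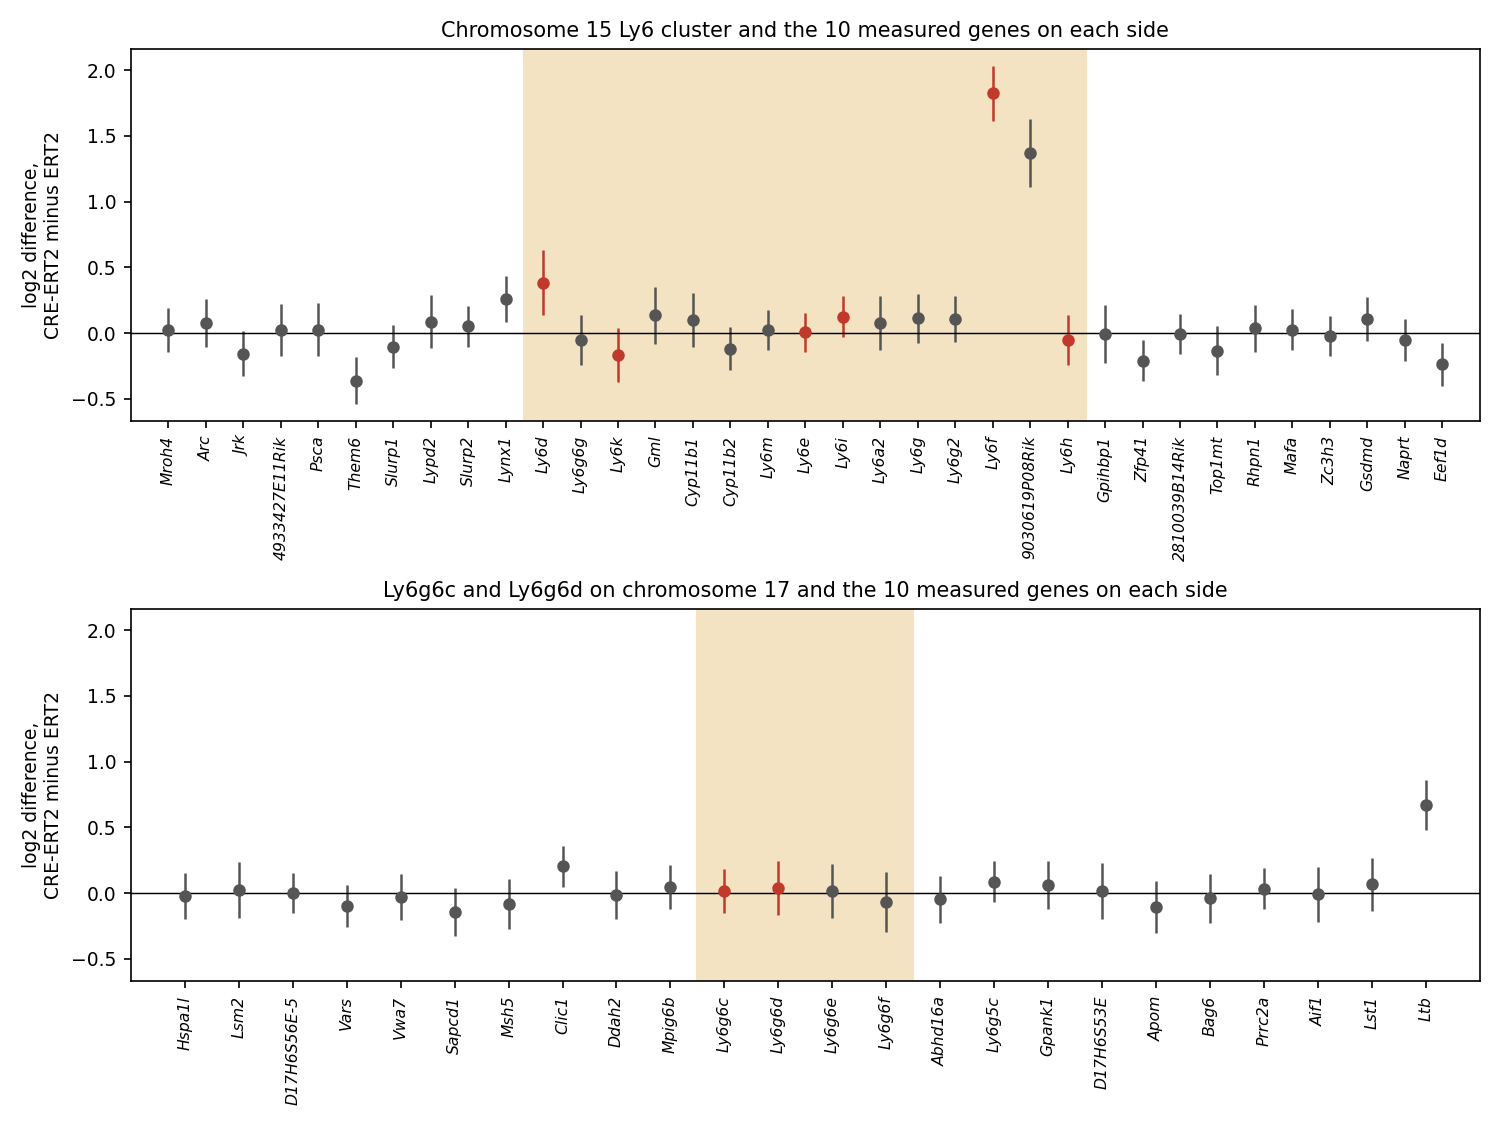
Log2 difference, CRE-ERT2 minus ERT2, of measured genes in chromosomal order around the chromosome 15 cluster (top) and around Ly6g6c and Ly6g6d (bottom), with 95% intervals; members are red, other genes grey, and the shaded span is the cluster or gene group. Ly6f at 1.82 and 9030619P08Rik at 1.37 stand beside each other, and Ltb at 0.67 stands at the far right of the lower panel.

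Where 4.58% of all genes were called, 1 of 22 other measured genes around Ly6g6c and Ly6g6d was called. This was Ltb, which encodes lymphotoxin beta and lies 10 measured genes beyond the Ly6g6 group. It read 10.08, 9.94 and 9.78 in CRE-ERT2 and 9.18, 9.35 and 9.26 in ERT2, with no overlap. The difference was 0.67 (adjusted p = 0.000589). Clic1 had the next smallest p and differed by 0.20 (adjusted p = 0.158). The Ly6g6e, Ly6g6f and Ly6g5c genes of the same region differed by 0.02, -0.07 and 0.09, and none was called.

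No measured relative in the wider Ly6/uPAR superfamily was called. Of 37 listed relatives 32 were measured and 0 were called by limma, 1 (Lynx1) had an unadjusted p under 0.05, and 0 were called under each of the alternative settings. The median difference was 0.02, and the range was -0.12 to 0.26. Plaur, the urokinase receptor that gives the superfamily its second name, differed by 0.15 (adjusted p = 0.336). Ly6c2, Ly6l, Ly6g5b, Gml2 and Pate3 were not analysed here as single genes.

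Since most Ly6 proteins need a GPI anchor to reach the surface, the genes that build the anchor were counted as well. All 29 listed genes were measured, with a median difference of -0.07. Of them 0 were higher and 1 was lower, where 4.58% of all genes were called. The lower one was Pigg, which adds a side branch to the anchor, with a difference of -0.33 (adjusted p = 0.0407). The call for Pigg ended without CRE-ERT2 replicate 2 (0.174) or 3 (0.179), without ERT2 replicate 1 (0.157) or 2 (0.0908), and with the replicate number as a block (0.0765). Pigp, a subunit of the enzyme that starts anchor synthesis, differed by 0.23 (adjusted p = 0.162).

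Other GPI-anchored surface proteins moved in both directions. Of 19 measured, 5 were higher and 2 were lower, where 2.3% of all genes were higher and 4.58% were called in either direction. The median difference was 0.02, and without CRE-ERT2 replicate 3 the counts were 3 and 1. Nt5e, the ecto-nucleotidase CD73, was lower, at 8.91 ± 0.09 in CRE-ERT2 and 9.96 ± 0.13 in ERT2 (SD, n = 3 each; difference -1.05, adjusted p = 1.25e-05). Gfra1, a co-receptor for glial cell line-derived neurotrophic factor, was higher by 0.60 (adjusted p = 0.000224). Cd52, a small lymphocyte antigen, was higher by 0.56 (adjusted p = 0.000926). Cd55, a complement regulator, was also higher by 0.56 (adjusted p = 0.0346), but its call was lost without CRE-ERT2 replicate 1 (0.1) or 3 (0.199) and without ERT2 replicate 1 (0.0511), and also after quantile normalization (0.0588) and with the replicate block (0.0579). The largest of these differences was smaller in size than that of Ly6f, which prompted the choice of the family, so nothing is read from this.

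Several Ly6 genes are known to respond to interferon, so interferon genes were set beside them. Of 45 listed interferon-induced genes 39 were measured, and of these 10 were higher and 0 were lower, with a median difference of 0.17, where 2.3% of all genes were higher. The largest increases were in Rtp4, a receptor-transporting protein (8.37 ± 0.09 in CRE-ERT2 and 7.35 ± 0.15 in ERT2, SD, n = 3 each; difference 1.02, adjusted p = 1.99e-05), and in Usp18, a negative regulator of the interferon receptor (0.76, adjusted p = 5.41e-05). Zbp1, a sensor of Z-form nucleic acids, was higher by 0.75 (adjusted p = 5.21e-05), and the cytosolic RNA sensor gene Ddx58 by 0.61 (adjusted p = 0.000702). Among 11 measured receptors and signalling genes 3 were higher and 0 were lower, with a median difference of 0.18. They were Socs1, a feedback inhibitor (0.45, adjusted p = 0.00473), Irf9, a subunit of the interferon-activated factor (0.40, 0.0163), and Ifnar1, a receptor chain (0.35, 0.0109). The Irf9 call was lost without CRE-ERT2 replicate 1 (adjusted p = 0.0765) or ERT2 replicate 1 (0.0804), and the Ifnar1 call without CRE-ERT2 replicate 3 (0.0585).

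**Figure D3:**
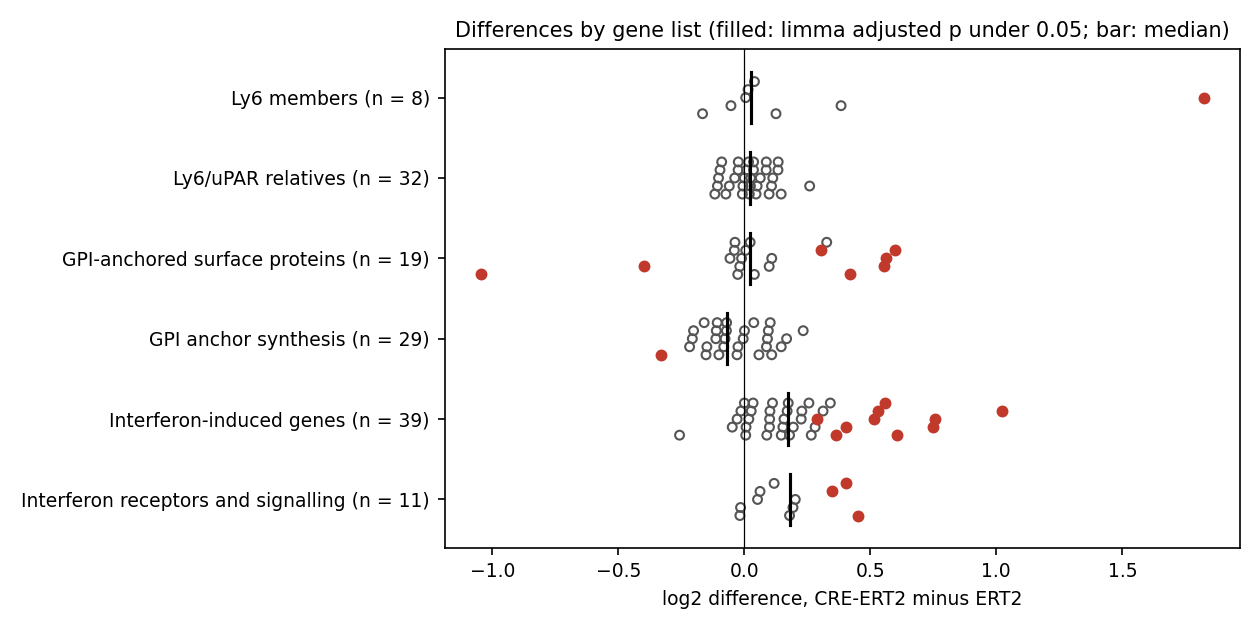
Log2 difference, CRE-ERT2 minus ERT2, of each measured gene in 6 lists, with 1 circle per gene and a bar at the list median; filled circles passed a limma adjusted p of 0.05. The medians are 0.03 for the Ly6 members, 0.02 for their relatives and 0.17 for interferon-induced genes, and Ly6f at 1.82, which prompted the choice of the family, lies far to the right.

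The labelled cell type was checked against its markers. Of 12 B-lineage markers 11 were measured, with mean levels of 8.42 to 14.4 and a median of 12.5. The surrogate light chain gene Igll1 averaged 14.46 in CRE-ERT2 and 14.40 in ERT2, and the B-lineage factor Pax5 averaged 12.57 in each group. Rag2, of the antigen receptor recombinase, was lower by a difference of -0.53 (adjusted p = 0.00426). Cd22, an inhibitory co-receptor, was higher by 0.37 (adjusted p = 0.0271), a call lost without CRE-ERT2 replicate 1 (0.101) or 3 (0.059) or ERT2 replicate 1 (0.122), and with the replicate block (0.0721). The summed log2 level of these 11 genes was 128.66 to 129.60 over the CRE-ERT2 arrays and 128.16 to 129.25 over the ERT2 arrays.

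Because Ly6c, Ly6g and Ly6a are better known from other blood cells, markers of those cells were read on the same arrays. Of 13 myeloid markers 0 were called by limma, and their summed level was 90.67 to 92.34 in CRE-ERT2 and 90.78 to 92.68 in ERT2. The monocyte receptor gene Csf1r averaged 6.84 in CRE-ERT2 and 6.80 in ERT2, both below the 95th percentile of the olfactory receptor genes, and Lyz2 had the most negative difference of that list (-0.22, adjusted p = 0.200). The macrophage marker gene Adgre1 differed by -0.13 (adjusted p = 0.393). Of 12 measured T and NK cell markers 0 were called, and their sum was 85.36 to 85.60 in CRE-ERT2 and 85.65 to 86.45 in ERT2. The smallest p in that list belonged to the NK receptor gene Klrb1c (-0.17, adjusted p = 0.377) and the T cell receptor complex gene Cd3d (-0.16, adjusted p = 0.434). Of 9 stem and progenitor markers 0 were called, with sums of 62.78 to 63.89 in CRE-ERT2 and 62.54 to 64.20 in ERT2. The stem cell factor receptor gene Kit differed by -0.26 (adjusted p = 0.083) and passed after quantile normalization (0.0276) or when only the 13292 brighter genes were kept (0.0447). Slamf1, a stem cell surface marker gene, differed by 0.19 (adjusted p = 0.230). Of all genes 4.58% were called, and no marker can be at 0 on this scale.

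Of 6 plasma cell markers 1 was lower, Sdc1, which encodes syndecan-1 (-0.44, adjusted p = 0.0209), and the call was lost without CRE-ERT2 replicate 3 (0.0884) or ERT2 replicate 1 (0.0959). Jchain, which encodes the joining chain of secreted antibodies, had the highest difference of that list, 0.34, and was not called (adjusted p = 0.120), and the list's median was 0.00. The plasma cell sums were 56.33 to 57.12 in CRE-ERT2 and 56.63 to 57.00 in ERT2. Of 10 stromal and endothelial markers 1 was higher, the adhesion molecule gene Pecam1 (0.40, adjusted p = 0.00962), and the call was lost without CRE-ERT2 replicate 1 (0.0509) or 3 (0.0526). Tek, an endothelial receptor gene, differed by 0.12 (adjusted p = 0.606). Over all genes the share called was 4.58% in either direction. The stromal sums were 79.68 to 81.03 in CRE-ERT2 and 78.49 to 80.53 in ERT2. The part of these shifts in the Ly6 values was not tested.

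The genes whose profile over the 6 arrays lay nearest to that of Ly6f were Cdh1, Glp1r and Cpe. Likeness was the root mean square difference after each gene was centred on its own mean, which weighs the size of the group difference most. It was 0.162 for Cdh1, which encodes E-cadherin and averaged 10.72 in CRE-ERT2 and 9.08 in ERT2. It was 0.196 for Glp1r, the receptor for glucagon-like peptide 1, which averaged 10.60 in CRE-ERT2 and 8.48 in ERT2. It was 0.197 for Cpe, a prohormone-processing carboxypeptidase, which averaged 8.53 in CRE-ERT2 and 6.97 in ERT2. Their differences were 1.64, 2.12 and 1.56, on either side of the 1.82 of Ly6f.

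**Figure D4:**
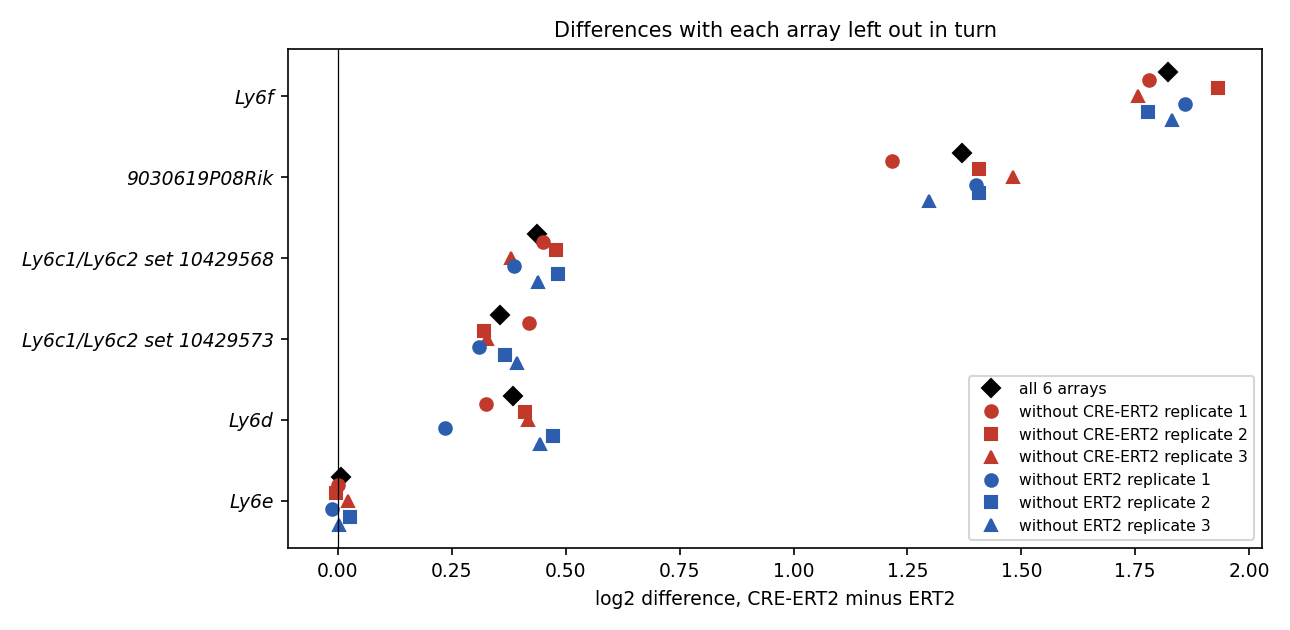
Log2 difference, CRE-ERT2 minus ERT2, with all 6 arrays (black diamond) and with each array left out in turn (red: a CRE-ERT2 array; blue: an ERT2 array). Ly6f stays within 1.76 to 1.93 and 9030619P08Rik within 1.22 to 1.48, while Ly6d reaches down to 0.24 without ERT2 replicate 1 and Ly6e stays near 0.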

How the data were processed

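The authors deposited a table of log2 expression with 35556 probe sets in rows and the 6 arrays in columns. The log2 scale was read from the range of the values. RMA (background correction, normalization between arrays, one summary per probe set) and Partek 6.5 are named for these values, per the submitters' processing notes. The sources used here name no genome build for the array. No scanner output was used, so it is unknown how far a value lies above background, and scan batches were not tested. The number of arrays limits precision.

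The annotation gives 1 gene to 21789 probe sets, several to 1621 and none to 12146. One probe set per gene was kept, which left 19938 genes. Values were compared with limma 3.58.1 in R 4.3.3 (lmFit, eBayes, two-sided, group only), with Benjamini-Hochberg adjustment over all genes and a threshold of 0.05. Shared probe sets were tested among all probe sets. The fit was tested on simulated data with 200 changed genes in each run. It recovered 40.0% of log2 changes of 0.3 and 98.4% of changes of 0.5, and 5.87% of the called genes were false. Changes of about 0.3 were thus often missed there. The simulated noise was independent between arrays and drawn from the variances of the fit itself. Fewer genes were changed there than the 914 called in the data, so these rates need not hold for the data. Ratios are 2 to the power of the log2 difference. No 2 arrays were duplicates, with Pearson correlations over probe sets of 0.991 to 0.996.

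Named genes were all members, up to 4 called genes of each list with the largest difference (where fewer than 2 passed, those with the smallest p up to 2), the 3 genes most like Ly6f, and a few genes picked as examples after their values were seen (Ly6-named genes near the members, Igll1, Pax5 and Csf1r). Members and lists were chosen with earlier results of these data known. Gene order and start-site windows came from RefSeq tables of GRCm38.p6. Alternatives were quantile normalization, median centring, leaving out dim genes, averaging the probe sets of a gene, testing every probe set, eBayes with trend and robust options, array weights, a replicate block, a minimum change and leaving out each array.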

Additional observations from a re-analysis of the deposited data

How the results depend on the processing

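Under all alternatives no called difference changed sign among the members, the listed genes named by the rule above and the shared Ly6c probe sets. Ly6f was higher throughout, and the signs of other genes were not compared. The count of called members was 1, and 2 with only the 13292 brighter genes kept or with a trended and robust variance, where Ly6d joined Ly6f. It was 1 to 2 with each array left out, the higher count without ERT2 replicate 2 or 3. The count over all genes was 914. It was 1544 with a trended and robust variance, 9 with a minimum log2 change of 1, and 298 with all probe sets tested, where more features are tested. It was 453 to 979 with each array left out: leaving out CRE-ERT2 replicate 2 gave 574, CRE-ERT2 replicate 3 gave 453 and ERT2 replicate 1 gave 560. Other causes were not tested. With a minimum log2 change of 1 no gene of the lists beside the members was called. With all probe sets tested, 5 interferon-induced genes, 0 interferon receptor or signalling genes and 4 GPI-anchored surface genes were called. Other counts of interferon-induced genes, 10 with the values as deposited, ran from 7 to 15. Among single genes and lists, 692 values under an alternative kept a gene's side of the threshold or a list's count within 1.5 times, 54 lost a call, 10 gained one and 42 moved otherwise. Quantile normalization gave 638 higher and 401 lower, where the values as deposited gave 459 higher and 455 lower. With only the brighter genes kept it was 540 higher and 720 lower, and with the trended and robust variance 587 higher and 957 lower. With the replicate number as a block, 589 genes and 1 member were called. Same-numbered arrays gave deviation correlations of -0.114, -0.372 and -0.0719, and differently numbered ones across the groups gave -0.315 to 0.449. Deviations within a group of 3 depend on each other, so these correlations cannot decide whether samples were paired, by number or in another order. Signal over background is unknown, so whether a change near the dim end would read smaller than it is was not tested. Ly6i and Ly6g6d lie near that end, and neither was called.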
